A study of Homo sapiens with 12 samples.

Results

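Gene expression at the end of 2 ways of blocking Wnt signalling was compared directly in derivatives of Ls174T cells. Ls174T was established from a human colorectal carcinoma, and its Wnt pathway is constantly on. Of the 12 samples of the series, each on its own Affymetrix U133 Plus 2.0 array, 6 were compared: the 3 induced arrays of Ls174T-pTER-β-catenin against the 3 induced arrays of Ls174T-L8, as their titles name them. In the first line (here the shRNA line) doxycycline switches on a short hairpin RNA against β-catenin, and RNA was taken after 72 h. In the second (here the dnTcf4 line) it switches on a dominant-negative Tcf4 transgene, a Tcf4 that can no longer activate its targets, and RNA was taken after 24 h. All groups were grown in RPMI medium with 5% fetal calf serum. The other 6 arrays, 3 of each line without doxycycline, served to show how far apart the lines were before induction. The question was which epithelial programs arrive at the same level by both routes and which end apart.

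Line, construct and time of induction differ together between the induced groups and cannot be told apart, and both lines received doxycycline with no array of doxycycline alone. Nothing in the labels tells whether a derivative is a single clone or whether its 3 arrays stem from 3 cultures. The p-values therefore measure only array-to-array spread, which may be technical. As the arrays average over a culture, fewer cells of a type and less RNA per cell cannot be told apart in any result that follows.

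In the intestine, Wnt ligands stabilise β-catenin, which joins Tcf4 on DNA and keeps cells at the crypt base dividing and undifferentiated. Cells that leave the crypt lose this signal, stop dividing and become absorptive cells (enterocytes or colonocytes) or secretory cells such as goblet cells, which make mucus. Most colorectal tumours carry mutations that hold β-catenin and Tcf4 active, and interrupting either protein in tumour lines is a standard way to release differentiation genes.

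Levels are signals on a linear scale in arbitrary units, with values under 1 set to 1 before log2. The table holds no detection calls, and no fold is given where a group lay under a signal of 10.2, the median over all probe sets, because such a fold depends on the floor. Differences are log2 of the dnTcf4 line minus the shRNA line, fitted with limma over all 12 arrays, and a difference was called at a Benjamini-Hochberg adjusted p under 0.05 over the 12386 genes tested. Because a p that misses the threshold does not show equal levels, the 95% interval decided likeness. A gene is named within 2-fold where the whole interval lay between −1 and 1 on the log2 scale, and apart where it was called with a difference of at least 2-fold. Called genes of a smaller difference whose interval passed 2-fold are intermediate, and genes neither called nor within 2-fold are unresolved. The gap is the difference between the lines, and its change is the gap after induction minus the gap before, tested in the same fit.

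The constructs left their mark. The main β-catenin probe set (CTNNB1) read 173, 164 and 132 in the induced shRNA line and 3379.5, 4100 and 3423 in the induced dnTcf4 line, groups 23.3-fold apart that were near each other before induction. Of the other 2 CTNNB1 probe sets 1 was 17.4-fold apart in the same direction, and the other, with signals of 33 to 70.1 on the induced arrays, was not called (log2 difference 0.44, adjusted p = 0.27). For TCF7L2, the gene of Tcf4, 2 of 7 probe sets were higher in the induced dnTcf4 line, 8.24-fold and 11.3-fold, and the other 5 were not called. The probe set at 8.24-fold was already higher in the uninduced dnTcf4 line (log2 difference 0.76, limma adjusted p = 0.0013). For the one at 11.3-fold no difference was called before induction (0.45, adjusted p = 0.256). Arrays of 1 group correlated at 0.958 to 0.969 over all probe sets with a mean at or above the median. Induced arrays of different lines correlated at 0.887 to 0.900 and uninduced arrays of different lines at 0.909 to 0.917, a description across probe sets. EPCAM, KRT8, KRT18, VIL1 and CDX2, which define intestinal epithelium, had signals from 158.4 to 9849.8 on the induced arrays. The leukocyte marker PTPRC read 0.8 to 10.7, the fibroblast marker COL3A1 0.2 to 9.7 and VIM, of mesenchymal cells, 3.2 to 15.4, all near the floor. COL1A1, a collagen of fibroblasts, read 27.6 to 78.3 and PECAM1, an endothelial marker, 13.3 to 36.8. Of 11 fibroblast, leukocyte and endothelial markers that passed the filter 4 were called, a smaller share than the 48.0% of all genes. All 4 differed by at least 2-fold, a larger share than the 16.8% of all genes that were apart. ACTA2 (smooth muscle actin), ESAM (an endothelial adhesion molecule) and CD4 (of T cells) were lower in the dnTcf4 line, with log2 differences of −2.37, −1.18 and −2.20 (adjusted p = 1.11e-08, 0.0132 and 0.0499), and LUM (lumican, a matrix protein) was higher by 2.52 (adjusted p = 0.000189). The call for CD4 was lost without any single induced array (adjusted p 0.0546 to 0.142). Over the whole lists, the summed signal of fibroblast markers was 380 to 451 in the induced shRNA line and 257 to 264 in the induced dnTcf4 line. Within these sums ACTA2 alone had means of 264 and 51.3. The summed signal of leukocyte markers was 109 to 156 and 91.4 to 102. The part of these markers in the results was not tested.

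Across all genes the induced lines differed at 5940 of 12386 genes tested (48.0%), 2612 higher and 3328 lower in the dnTcf4 line. Centring each array on its median turned that split from 44.0% higher to 58.0% higher and moved the median difference from −0.079 to 0.076, so directions of small differences depend on the scaling. Apart by at least 2-fold were 2077 genes (16.8%), 868 higher (7.01%) and 1209 lower (9.76%) in the dnTcf4 line. Of the 2077, 1798 had means at or above the filter level in both induced groups. A test against a minimum change of 2-fold (limma's treat), which is stricter, called 333 higher and 434 lower. Within 2-fold were 6949 genes (56.1%), 2544 of them called as small differences. A further 1319 genes were intermediate and 2041 unresolved. The signals of the induced lines did not overlap at 6777 of the 12386 genes tested (54.7%). Lack of overlap is therefore common, and by itself marks no gene as unusual. Before induction 1289 genes were apart (10.4%) and 7968 within 2-fold (64.3%). The median size of the gap was 0.34 before and 0.45 after induction, and the gap changed at 2185 genes (17.6%), widening at 1602 and narrowing at 583.

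**Figure D1:**
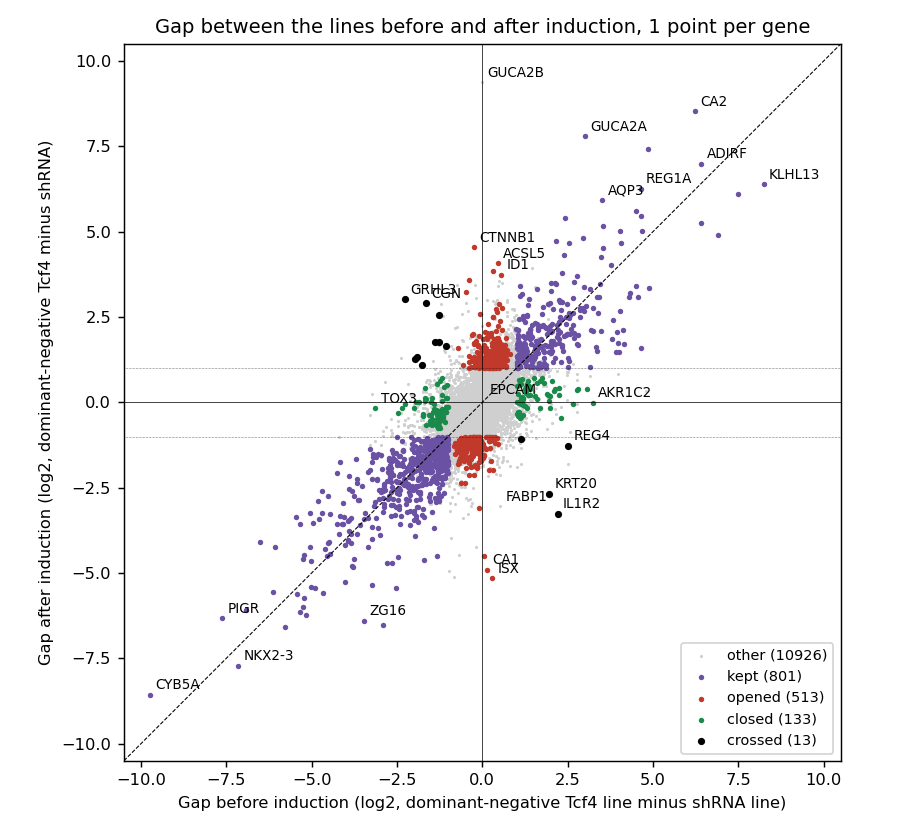
Gap between the lines (log2 signal, dnTcf4 line minus shRNA line) before induction on the horizontal axis and after induction on the vertical axis, 1 point per gene tested; the dashed line marks an equal gap and the dotted lines a 2-fold end-state difference. Coloured classes are 801 genes apart at both times in 1 direction (kept), 513 that became apart (opened), 133 that came within 2-fold (closed) and 13 that changed sides (crossed).

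Most gaps present before induction persisted. Of the 1289 genes apart before induction 801 stayed apart in the same direction (62.1%, which is 38.6% of those apart afterwards), and 170 (13.2%) were within 2-fold afterwards. Conversely 638 of the 2077 genes apart at the end (30.7%) had been within 2-fold before. Over all genes tested the gaps before and after correlated at r = 0.697 (rho = 0.62), given as a description across genes that share arrays of the same lines.

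Several broadly expressed epithelial genes, picked from different lists because they ended within 2-fold, show how near such levels lay. EPCAM, the epithelial adhesion molecule, read 4267, 3997 and 4342 in the induced shRNA line and 4516, 4315 and 4529 in the induced dnTcf4 line. Keratin 18, the main filament protein of simple epithelium, read 9346, 8368 and 9849.8 against 8971, 9533 and 9819. The groups overlap for both genes, with 95% intervals of the log2 difference from −0.062 to 0.23 and from −0.12 to 0.21. EHF, an epithelial ETS factor, read 1804, 1514 and 1484 in the shRNA line and 1647, 1573 and 1490.1 in the dnTcf4 line, again overlapping. The nuclear receptor PPARG, which is induced as colonocytes mature, read 842, 862 and 909 against 877, 847 and 869, a difference of −0.011 with an interval from −0.27 to 0.25. S100P, a calcium-binding protein of surface epithelium, read 6144, 5938 and 6813 against 5819, 6052 and 6164 and overlapped too. The sodium channel subunit SCNN1A differed by 0.018, the adhesion-complex protein CTNNA1 by 0.24 and the claudin CLDN7 by 0.27, all with intervals within 2-fold. Under quantile normalization EPCAM, KRT18 and S100P were called higher in the dnTcf4 line, by 0.33, 0.54 and 0.35 (adjusted p = 9.47e-05, 2.44e-08 and 5.57e-05), and stayed within 2-fold.

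Several of these genes met from different starting levels. KLF4, a factor of differentiated and goblet cells, started at 1385 in the shRNA line and 563 in the dnTcf4 line (geometric means of 3 arrays) and ended at 3284, 3306 and 3719 against 2989, 2916 and 2692. The gap closed from −1.30 to −0.26, and its change passed the test (adjusted p = 0.000308). GCNT3, which branches mucin sugars, started at 32 and 68.4 and ended at 365, 360.4 and 490.4 against 314, 289 and 274, now higher in every shRNA array but within 2-fold. TSPAN1, a tetraspanin of surface epithelium, went from 497 and 198 to 1768, 1819 and 2388 against 1559, 1539.9 and 1552. VIL1, the villin that bundles actin in microvilli, ended at 889, 941 and 1058 against 567, 660.3 and 633, a difference of −0.63 after one of −1.29. KRT8 and KRT19 closed from the opposite side: gaps of 1.74 and 1.60 before induction became 0.71 and 0.58, still called and still higher in the dnTcf4 line. TJP3 (a tight junction scaffold), HES1 (the Notch effector that restrains secretory fate), RGMB and ALCAM came within 2-fold as well, with end differences of 0.026, −0.23, −0.38 and 0.36.

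**Figure D2:**
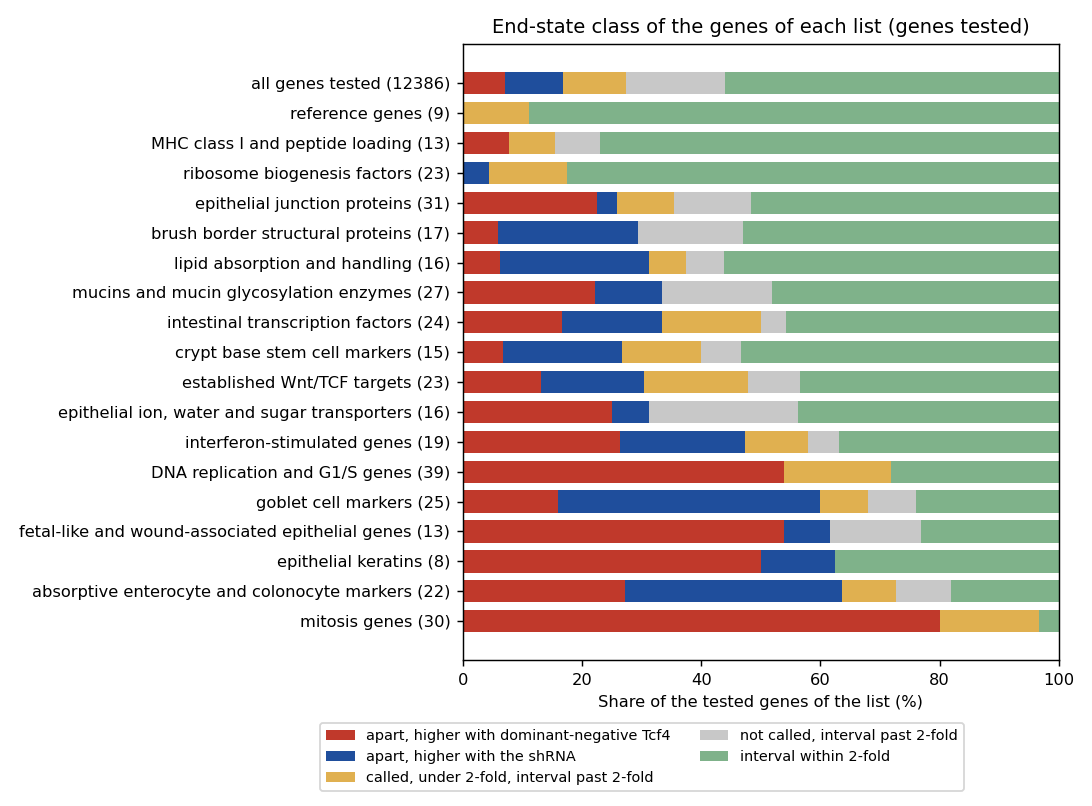
Share of the tested genes of each list (in percent, number tested in brackets) that were apart with the higher level in either line, called but under 2-fold, not called with an interval past 2-fold, or within 2-fold after induction. Reference, MHC class I and ribosome biogenesis genes are mostly within 2-fold (88.9%, 76.9% and 82.6%, against 56.1% of all genes). Apart are 63.6% of absorptive markers and 80.0% of mitosis genes, against 16.8% of all genes.

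Absorptive cell markers ended divided between the lines. Of 22 tested 18 were called (81.8%, against 48.0% of all genes) and 14 were apart (63.6% against 16.8%), 6 higher in the dnTcf4 line and 8 higher in the shRNA line. Among the 14, GUCA2A, GUCA2B and CA2 had means under the filter level of 10.2 in the induced shRNA line. Of the genes not apart, HSD11B2, SLC26A2, TSPAN1 and VIL1 were within 2-fold. The median size of the difference was 1.29 after induction and 0.90 before, beside 0.45 and 0.34 over all genes. The list summed to 21500 to 26200 signal units on the induced shRNA arrays and 15300 to 17500 on the induced dnTcf4 arrays, up from 4520 to 5020 and 3110 to 3620. Bright genes weigh most in these sums, and LGALS4 alone had induced means of 9630 and 5330. In both lines the summed level was higher on every induced array than on any uninduced one.

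Several colonocyte genes stood higher in the shRNA line. FABP1, the liver-type fatty acid binding protein of absorptive cells, read 2018, 2660.2 and 2941 there and 241, 347 and 339 in the dnTcf4 line. Every shRNA array stood above every dnTcf4 array, 8.24-fold higher (log2 difference −3.04, SE 0.23, limma adjusted p = 1.53e-08), although both lines had started near 16.7 and 24.1. Without probe sets that can bind several transcripts, another FABP1 probe set gave −1.55 and was not called (adjusted p = 0.119). CA1, the carbonic anhydrase of surface colonocytes, read 387, 285 and 492 against 11.8, 10 and 17.4. In the dnTcf4 line no change from the uninduced level of 15.4 was called (adjusted p = 0.585), and the groups were 29.8-fold apart (SE 0.34 on the log2 scale, adjusted p = 6.82e-09). ISX, an intestinal homeobox factor that controls vitamin A uptake, behaved in the same way: 577, 660.4 and 596 in the shRNA line against 17.9, 23.6 and 11.8 in the dnTcf4 line, where no rise was called (adjusted p = 0.0866).

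Keratin 20, a marker of differentiated colonocytes, changed sides. It started at 24.5 in the shRNA line and 95 in the dnTcf4 line and ended at 2403, 2011 and 3143 against 556, 320.5 and 328. It rose in both lines, 101-fold and 4.08-fold (adjusted p = 1.27e-11 and 1.29e-05), and the change of the gap was −4.63. The CEACAM adhesion proteins CEACAM5 and CEACAM6 read 1751, 2039.9 and 2244 and 1197, 1583 and 1480.1 in the shRNA line and 632, 472 and 556 and 709, 553 and 568 in the dnTcf4 line. Neither overlapped, with differences of −1.86 and −1.22; these relatives are close in sequence, so signal may be shared between them. LGALS4, an intestinal galectin, and DPP4, a brush border peptidase, were also higher in the shRNA line, by 1.81-fold and 1.71-fold. The sodium-coupled transporters SLC5A1 (glucose) and SLC6A19 (neutral amino acids) were apart in the same direction at both times, with end differences of −2.85 and −1.59.

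The guanylin peptides stood on the other side. GUCA2A (guanylin), a ligand that adjusts fluid secretion through guanylate cyclase C, read 7.8, 2.2 and 12.2 in the shRNA line and 1303, 1123 and 1595 in the dnTcf4 line. GUCA2B (uroguanylin), the second such ligand, read 2, 0.6 and 1.1 against 868, 739.9 and 1019.5. The shRNA arrays lay near or under the filter and the dnTcf4 arrays far above it, with no overlap (adjusted p = 1.24e-07 and 8.12e-08). GUCA2B was low in both lines before induction (5.24 and 5.19), and the gap changed (adjusted p = 3.80e-05). CA2, a second carbonic anhydrase, read 0.2, 0.2 and 0.6 in the shRNA line, all under the floor, and 377, 362 and 375 in the dnTcf4 line. Here the uninduced dnTcf4 line already stood at 129. PLAC8 read 244, 283 and 279 against 2197, 2118 and 2492 and MALL, a membrane raft protein of surface cells, 426, 370.1 and 789.6 against 926, 1130.2 and 1227. Both were apart without overlap, PLAC8 by 8.44-fold from a wider gap before induction (change −1.49, adjusted p = 5.43e-05).

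**Figure D3:**
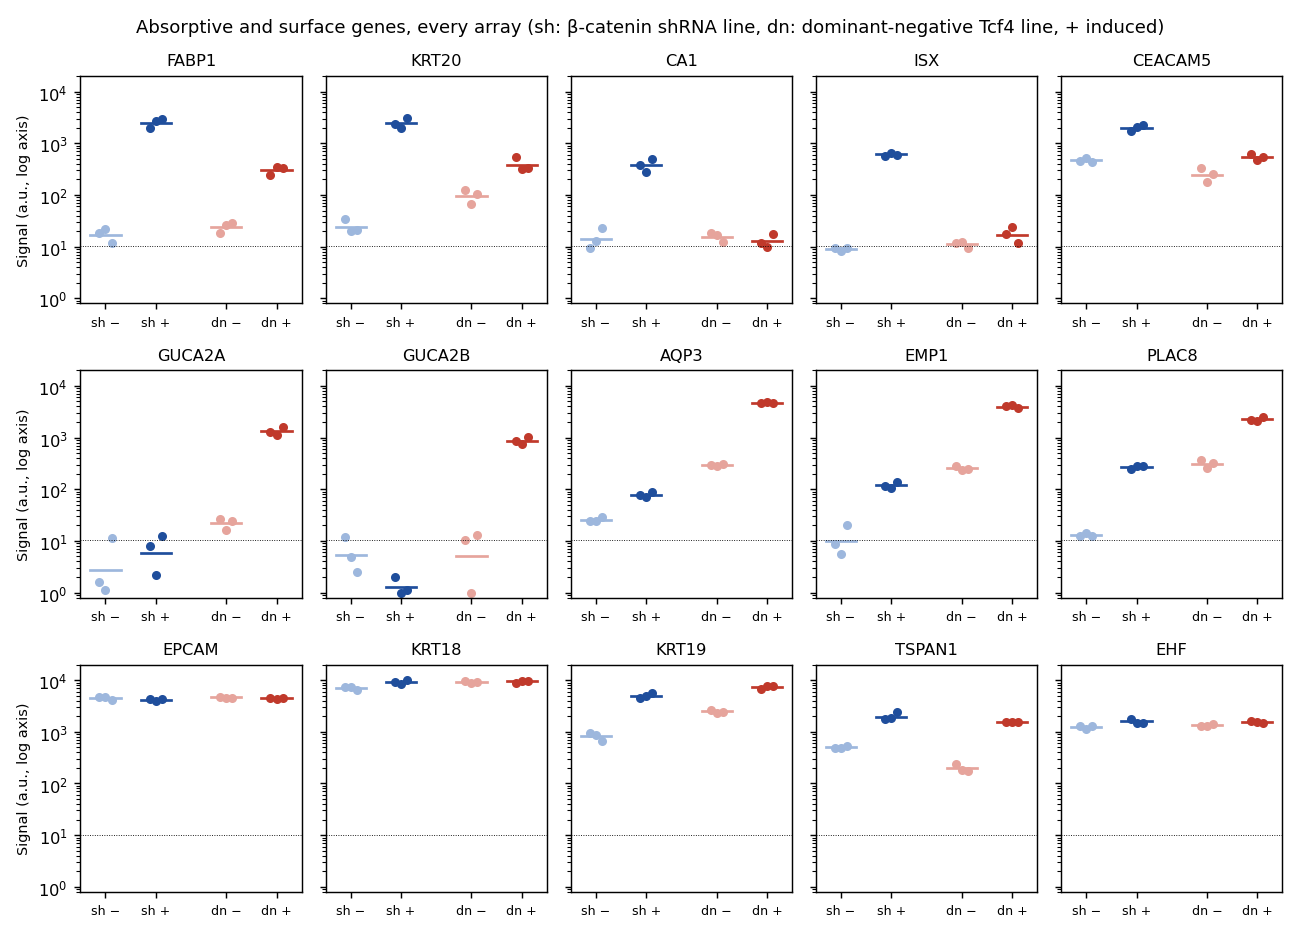
Signal on every array (arbitrary units, log axis, values under 1 drawn at 1) for absorptive and surface epithelial genes; points are the 3 arrays of a group, bars their geometric means and the dotted line the median over all probe sets, 10.2. FABP1, KRT20, CA1, ISX and CEACAM5 end higher in the shRNA line, GUCA2A, GUCA2B, AQP3, EMP1 and PLAC8 end higher in the dnTcf4 line, and EPCAM, KRT18, KRT19, TSPAN1 and EHF end within 2-fold.

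The upstream sequences of genes from both sides of this split are shown because they let a reader compare the guanylin pair, which ended higher in the dnTcf4 line and whose genes are neighbours on chromosome 1, with FABP1 and ISX, which ended higher in the shRNA line. They are the 250 bases before the start site from RefSeq (GRCh38.p14), 5′ to 3′ on the strand of the gene. GUCA2A lies at chr1:42164746-42164995 on the minus strand and GUCA2B at chr1:42153160-42153409 on the plus strand. FABP1 lies at chr2:88128063-88128312 on the minus strand and ISX at chr22:35065908-35066157 on the plus strand. Capitals mark matches, on either strand, to the letters CTTTGAT or CTTTGAA (a Tcf4 core), TTTATNG (a CDX core) or GGTCAAAG (a nuclear receptor half-site of the HNF4 kind).
GUCA2A: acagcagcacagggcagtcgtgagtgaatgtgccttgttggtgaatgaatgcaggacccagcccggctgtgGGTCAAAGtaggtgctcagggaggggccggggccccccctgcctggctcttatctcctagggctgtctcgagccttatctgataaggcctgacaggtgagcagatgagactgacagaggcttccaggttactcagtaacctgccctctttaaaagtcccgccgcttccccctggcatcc
GUCA2B: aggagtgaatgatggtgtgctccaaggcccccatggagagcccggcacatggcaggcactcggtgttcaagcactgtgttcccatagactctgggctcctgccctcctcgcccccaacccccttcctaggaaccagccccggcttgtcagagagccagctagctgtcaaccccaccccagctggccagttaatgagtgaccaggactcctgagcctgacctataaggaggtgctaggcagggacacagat
FABP1: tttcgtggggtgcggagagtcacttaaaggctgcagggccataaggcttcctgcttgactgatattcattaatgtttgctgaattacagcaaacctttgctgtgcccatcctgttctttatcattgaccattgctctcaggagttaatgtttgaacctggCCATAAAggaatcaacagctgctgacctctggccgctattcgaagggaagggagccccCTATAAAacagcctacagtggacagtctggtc
ISX: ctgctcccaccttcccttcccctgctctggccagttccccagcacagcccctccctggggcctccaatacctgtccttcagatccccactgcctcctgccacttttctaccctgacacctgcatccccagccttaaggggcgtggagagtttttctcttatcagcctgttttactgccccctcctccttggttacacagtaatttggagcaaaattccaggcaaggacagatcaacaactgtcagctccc

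GUCA2A held 1 match, to GGTCAAAG, and FABP1 held 2, both to TTTATNG read on the opposite strand, 90 and 32 bases before the start. The second of these overlaps the letters TATAAA of a TATA box. GUCA2B and ISX held none, and none of the 4 windows held the Tcf4 core. Over all 27305 windows of this length 6.03% held the Tcf4 core, 9.29% TTTATNG and 0.656% GGTCAAAG. Among the 10088 genes tested with a window the shares were 3.80%, 5.92% and 0.496%. The Tcf4 core was in 3.56% of those apart and higher in the dnTcf4 line, 4.29% of those apart and lower, and 3.45% of those within 2-fold. TTTATNG was in 6.84%, 7.01% and 5.06% of the same classes, and GGTCAAAG in 0.57%, 1.05% and 0.445%. A match describes letters and is no evidence of binding, and its absence says only that the letters are not in this window.

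Structural genes of the absorptive surface were within 2-fold at about the share of all genes. Of 17 brush border proteins 10 were called (58.8%, against 48.0% of all genes), 5 were apart (29.4%, against 16.8%) and 9 were within 2-fold (52.9%, against 56.1% of all genes). MISP, EPS8, NHERF1 and PLS1, which organise or bundle microvillar actin, had end differences of 0.47, 0.42, 0.32 and −0.52. EZR (ezrin, which ties actin to the membrane) was within 2-fold by its brightest probe set at 0.66, but 2 further probe sets gave 1.28 and 1.19 and were apart. ESPN, which crosslinks microvillar actin, read 518, 477 and 669 in the shRNA line and 66.1, 65.5 and 102 in the dnTcf4 line, apart from the start. USH1C, a scaffold of the microvillar tip complex, opened from 0.20 to 1.02. The dimmer PDZK1, CDHR5 and MYO1A were higher in the shRNA line (adjusted p = 0.0167, 0.0221 and 0.0311), but these calls were lost on leaving out single arrays. The call for PDZK1 was lost without dnTcf4 induced replicate 2 (0.0623), and that for CDHR5 without induced dnTcf4 replicate 1 or 2 or shRNA replicate 3 (0.0781, 0.0765 and 0.073). That for MYO1A was lost without any induced array but shRNA replicate 1 (0.0573 to 0.0931). All are adjusted p from limma.

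Of 16 genes of lipid absorption and handling 11 were called (68.8%, against 48.0% of all genes), 1 apart and higher and 4 apart and lower in the dnTcf4 line (31.2% apart, against 16.8%), and 9 were within 2-fold (56.2%, against 56.1%). With each array centred on its median 8 were called. ACSL5, which activates long-chain fatty acids for triglyceride synthesis, read 58.7, 70.8 and 45.9 in the shRNA line and 903, 984 and 1016 in the dnTcf4 line. It had started at 481 and 660.4, fell 8.36-fold in the shRNA line and rose 1.46-fold in the dnTcf4 line. On the other side stood, besides FABP1, MTTP, which loads lipid onto lipoproteins, at 85.6, 73.2 and 68.1 against 22, 26.1 and 16.9. PLIN2, which coats lipid droplets, and NPC1L1, the cholesterol transporter, were also higher in the shRNA line (adjusted p = 0.00417 and 0.0276). PLIN2 read 66, 27 and 45 against 3.8, 15 and 16.4, and NPC1L1 was as dim. The call for NPC1L1 was lost without induced dnTcf4 replicate 1 or 2 or shRNA replicate 2 or 3 (adjusted p 0.0673 to 0.1). The triglyceride synthases DGAT1 and DGAT2 differed by 0.15 and −0.51, within 2-fold. CPT1A, which admits fatty acids to mitochondria, and ACADVL, which oxidises them there, differed by −0.26 and −0.19.

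Of 16 ion, water and sugar transporters 7 were called (43.8%, near the 48.0% of all genes) and 5 were apart (31.2%, against 16.8%). AQP3, a water and glycerol channel of the surface epithelium, read 77, 69.9 and 88.5 in the shRNA line and 4648, 4955 and 4725 in the dnTcf4 line. The groups were 61.1-fold apart with no overlap (log2 difference 5.93, SE 0.12, adjusted p = 2.16e-15), from a gap of 3.52 before induction that widened (adjusted p = 8.37e-08). ANO1, a calcium-activated chloride channel, opened from 0.49 to 2.88 and read 57.8, 46.9 and 46.1 against 309.7, 376 and 425. CFTR, the cAMP-regulated chloride channel, was apart at both times, and its gap narrowed from 3.92 to 1.48. ATP1B1, the sodium pump β subunit, differed by 0.29 and the chloride carrier SLC12A2 by −0.14, both within 2-fold.

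Keratins, the filament proteins of epithelia, were higher in the dnTcf4 line where they ended apart, except KRT20. Of 8 tested 7 were called (87.5%, against 48.0% of all genes), 4 apart and higher and 1 apart and lower in the dnTcf4 line (62.5% apart, against 16.8%), with KRT8, KRT18 and KRT19 within 2-fold. Keratin 7, which normal colon hardly makes, read 43.6, 61.3 and 50.8 in the shRNA line and 362, 354 and 318 in the dnTcf4 line, and keratin 80 read 42, 37.1 and 36.7 against 414, 355 and 465. Neither overlapped, and the gaps widened by 1.80 and 2.31 (adjusted p = 0.000222 and 0.000111). For KRT7 another probe set, with signals near 27 in both lines, gave −0.011 (adjusted p = 0.994). KRT13, of stratified epithelium, read 6.1, 19.3 and 27.2 against 224, 201 and 261. KRT15 was dim in all groups.

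Of 31 junction genes 20 were called (64.5%, against 48.0% of all genes), 7 apart and higher and 1 apart and lower in the dnTcf4 line (25.8% apart, against 16.8%), and 16 were within 2-fold (51.6%, against 56.1%). TJP1 (the tight junction scaffold ZO-1) read 286, 356 and 246 in the shRNA line and 1118, 1046 and 1079.8 in the dnTcf4 line. Desmosomal cadherins DSC2 and DSG2 read 506, 538 and 477 and 941, 969.5 and 780 against 1371, 1465 and 1300.5 and 2300.2, 2226 and 1939. All these values separate the groups, and all were apart before induction. OCLN (occludin) opened instead, from −0.092 to 1.06, and CGN (cingulin) crossed, from 36.9 and 11.8 before induction to 35.6, 24.7 and 21.5 against 169, 214 and 220.5. The only junction gene apart with the higher level in the shRNA line was CDH3 (P-cadherin), at 395, 342 and 422 against 58.3, 72.8 and 55. CDH17, an intestinal cadherin, narrowed from 3.15 to 1.03. CDH1 (E-cadherin) differed by −0.49 and JUP (plakoglobin) by 0.23, within 2-fold.

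Goblet cell markers were divided too. Of 25 goblet cell markers 20 were called (80.0%, against 48.0% of all genes) and 15 were apart (60.0%, against 16.8%), 4 higher and 11 lower in the dnTcf4 line, with 6 within 2-fold. Much of this division was there before induction: 17 of the 25 were apart before it, where 10.4% of all genes were. Of the 25, 12 kept their gap and its direction, and of 9 gaps that changed 8 narrowed and 1 widened. The median size of the gap was 1.89 before and 1.31 after. The list summed to 27500 to 30700 on the induced shRNA arrays and 23300 to 24300 on the induced dnTcf4 arrays. Bright genes weigh most in these sums: AGR2 alone had means of 9130 and 7310 and REG4 of 6850 and 2840.

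ZG16, FCGBP and TFF3 were among the goblet genes higher in the shRNA line. ZG16, a lectin-like protein of goblet granules, read 416, 499.6 and 637 there and 14, 2.1 and 7.5 in the dnTcf4 line. FCGBP, which crosslinks mucus, read 787, 775 and 761 against 25.3, 24.9 and 13.2. TFF3, the trefoil peptide of intestinal goblet cells, read 2046, 2445 and 2351 against 397, 345 and 409. None of the 3 overlapped, and their gaps before induction, −3.48, −4.04 and −3.03, were not shown to change. Other goblet genes stood higher in the dnTcf4 line. TFF1, a trefoil peptide typical of stomach, read 761, 1124 and 1025 against 3443, 3533 and 3483, and its gap narrowed from 3.81 to 1.86 (adjusted p of the change 3.56e-06). MUC2, the gel-forming mucin of the intestine, read 613, 624 and 584 in the shRNA line and 1226, 1564 and 1772 in the dnTcf4 line, narrowing from 2.51 to 1.31. AGR3, a disulfide isomerase of secretory cells, read 227, 216 and 207 against 1841, 1932 and 1705, with its relative AGR2 within 2-fold at 9306, 8214 and 9863 against 7056, 7357 and 7529.5.

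REG4, a secreted lectin, crossed over. It started at 309 in the shRNA line and 1778 in the dnTcf4 line and ended at 6248, 7103 and 7211 against 2712, 2897 and 2899.8, having risen 22.1-fold and 1.59-fold. ATOH1, the factor that commits cells to secretory fate, was higher in the shRNA line at 53, 57.7 and 61.9 against 16.8, 20.3 and 5.2, with a like gap before induction (−2.30). SPDEF and FOXA3, goblet factors that act after it, were within 2-fold at −0.54 and 0.23. PIGR, the receptor that carries IgA across the epithelium, read 8498, 8357 and 8488 in the shRNA line and 132, 101 and 87.7 in the dnTcf4 line, 80.1-fold apart. It rose in the dnTcf4 line (4.0-fold, adjusted p = 1.68e-08), and the gap narrowed by 1.31 without closing.

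**Figure D4:**
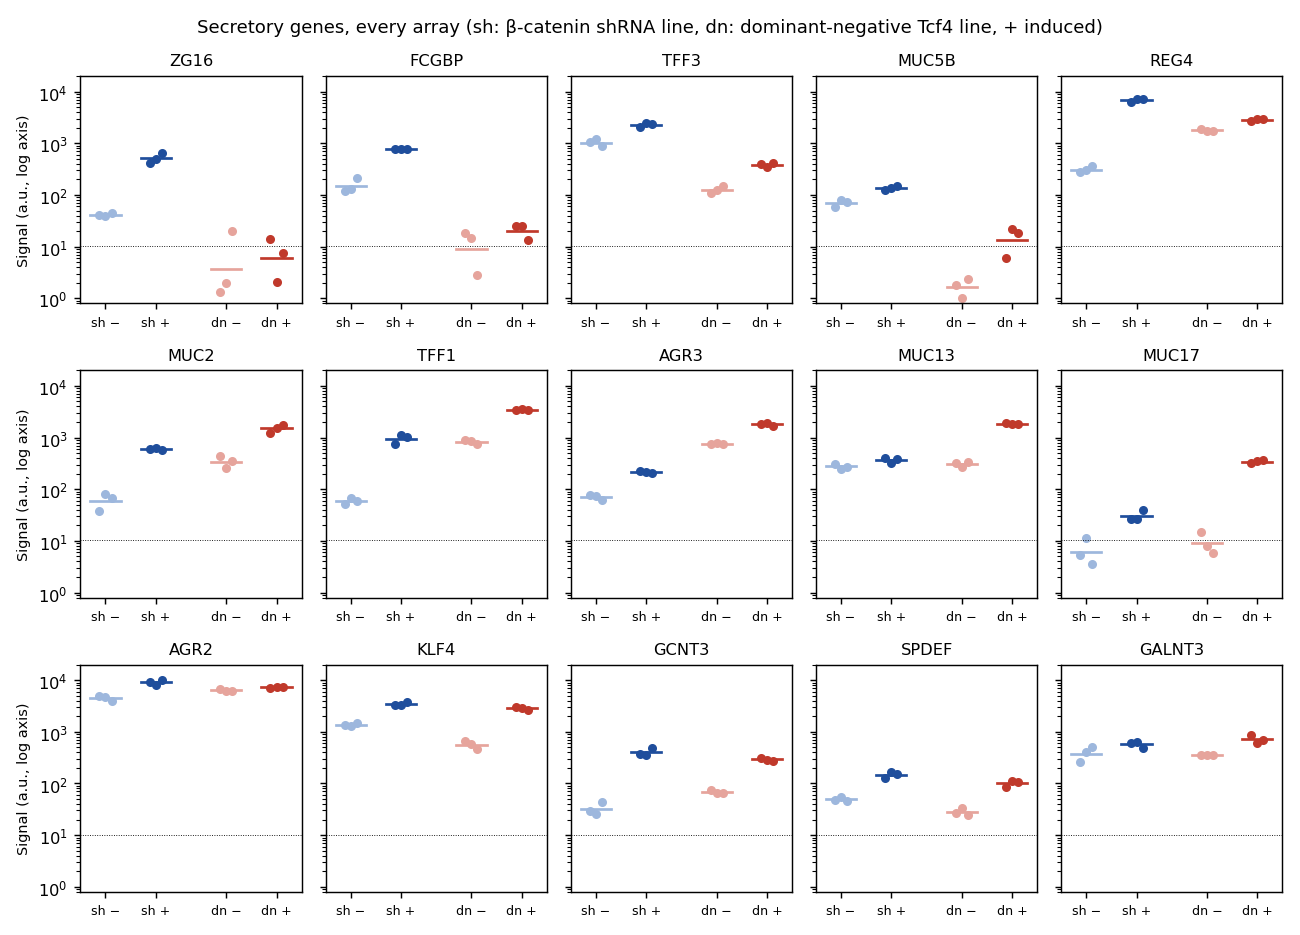
Signal on every array (arbitrary units, log axis, values under 1 drawn at 1) for secretory genes; points are the 3 arrays of a group, bars their geometric means and the dotted line the median over all probe sets, 10.2. ZG16, FCGBP, TFF3, MUC5B and REG4 end higher in the shRNA line, MUC2, TFF1, AGR3, MUC13 and MUC17 end higher in the dnTcf4 line, and AGR2, KLF4, GCNT3, SPDEF and GALNT3 end within 2-fold.

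Of 27 mucins and mucin glycosylation enzymes 13 were called (48.1%, the share of all genes), and 13 were within 2-fold. Apart were 9 (33.3%, against 16.8% of all genes), 6 higher and 3 lower in the dnTcf4 line. The membrane mucins MUC13, MUC17 and MUC20 were among the 6, while MUC3A (within 2-fold), MUC1 and MUC4 (both unresolved) were not called, at 0.06, 0.39 and 0.45. MUC13 read 406.8, 324.6 and 392.1 in the shRNA line and 1891, 1815 and 1811 in the dnTcf4 line, from near-equal starts (277 and 311). MUC17 read 27.1, 26.7 and 39.5 against 322, 345 and 361 and MUC20 44.7, 39 and 64.8 against 236, 285 and 367. No array overlapped for MUC13, MUC17 and MUC20, and their gaps widened (adjusted p = 1.94e-07, 0.00241 and 1.22e-05). The gel-forming MUC5B was higher in the shRNA line, at 128, 137 and 148 against 6.1, 21.9 and 18, after a wider gap at the start. MUC5AC read 540.3, 625 and 546 against 189, 197 and 363 without overlap but was not called (adjusted p = 0.083). ST6GALNAC1, which caps mucin sugars with sialic acid, opened from 0.20 to −1.98 with 609, 542 and 727 in the shRNA line and 147, 162 and 164 in the dnTcf4 line. The chain-starting enzymes GALNT2, GALNT3 and GALNT7 differed by −0.031, 0.31 and −0.088, within 2-fold, while GALNT1 and GALNT12 were apart in opposite directions (1.64 and −2.31).

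Of 10 entries for Paneth cells, the antimicrobial cells beside crypt stem cells, 6 were tested and 5 of these were apart (83.3%, against 16.8% of all genes). The markers DEFA5, LYZ and MMP7 did not pass the filter, so these counts leave them out. REG1A, a secreted lectin, read 91.7, 75.5 and 85.1 in the shRNA line and 5656, 7053 and 6567 in the dnTcf4 line, 76.3-fold apart. The uninduced levels were 283 and 7046, the gap widened (adjusted p = 2.50e-06), and REG1A fell 3.37-fold in the shRNA line. REG1B, REG3A and the defensin DEFA6 were apart in the same direction (adjusted p = 3.59e-07, 1.05e-08 and 7.80e-05). DEFA6 was dim, at 1.4 to 5.5 in the shRNA line and 15.3 to 30.6 in the dnTcf4 line. REG1B, REG3A and DEFA6 had means of 6.87, 8.67 and 3.37 in the induced shRNA line, under the filter level of 10.2. Such genes pass the filter only through groups where they are higher, so the share apart in this list leans on the filter. REG1A and REG1B are near-identical, so their separate values are uncertain. PLA2G2A, an antibacterial phospholipase, stood on the other side, at 351, 454 and 457 against 65.8, 102 and 80.6. PRSS2, a trypsinogen that shares sequence with PRSS3, met at 362, 439 and 399 against 523, 551 and 489.

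Other secretory lineages were scarcely measured. Of 19 enteroendocrine entries only NEUROG3, which starts that lineage, passed the filter, at 47.1, 40.5 and 34.6 against 11.1, 12.5 and 10.2. Of 6 gastric genes 2 were called (33.3%, under the 48.0% of all genes), and both were apart (33.3%, against 16.8%). TFF2 read 126, 158 and 183 against 472, 458 and 556. CTSE read 15.4, 16.8 and 20.8 against 168, 136 and 137, and both were higher in the dnTcf4 line from the start. Of 4 tuft cell genes PTGS1, a prostaglandin synthase, and ALOX5, a leukotriene enzyme, were higher in the dnTcf4 line and apart, and the other 2 were not called. The called share, 50%, was near the 48.0% of all genes, and the share apart was 50%, against 16.8%. The tuft factor POU2F3 did not pass the filter.

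Transcription factors of the intestine included both kinds. Of 24 tested 16 were called (66.7%, against 48.0% of all genes), 4 were apart and higher and 4 apart and lower (33.3% apart, against 16.8%), and 11 were within 2-fold (45.8%, against 56.1%). CDX1, which specifies intestinal identity, differed by −0.37 and its relative CDX2 by −0.87, which was intermediate. GATA6 and GRHL2 differed by −0.24 and −0.28, and HNF4G by −0.28, all within 2-fold. Besides ISX, the pioneer factor FOXA1 was higher in the shRNA line, at 268, 346 and 285 against 76.7, 113 and 97.3. On the other side ID1, an inhibitor of helix-loop-helix factors, read 132, 106 and 178 in the shRNA line and 1718, 2349.7 and 1461 in the dnTcf4 line. The groups were 13.3-fold apart after starts of 701 and 1032, with a fall of 5.17-fold in the shRNA line and a rise of 1.75-fold in the dnTcf4 line. Its relative ID3 opened too, to 253, 224 and 245 against 634, 897 and 683, though it fell in both lines. ELF3 and KLF5, factors of surface and proliferating epithelium, were higher in the dnTcf4 line by 2.1-fold and 2.07-fold.

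Established targets of Wnt signalling were called in both directions. Of 23 tested 15 were called (65.2%, against 48.0% of all genes), 4 higher and 11 lower in the dnTcf4 line, where 21.1% of all genes were called higher and 26.9% lower. Apart were 7 (30.4%, against 16.8%), 3 higher and 4 lower, and 10 were within 2-fold (43.5%, against 56.1%). The median difference was −0.25, beside −0.079 over all genes. With each array centred on its median 5 were called higher and 9 lower, with a median of −0.096 beside 0.076 over all genes, and under quantile normalization 4 higher and 11 lower of 24 tested. AXIN2, the feedback inhibitor, read 250.4, 216 and 258 in the shRNA line and 97.5, 134 and 88.5 in the dnTcf4 line, and ASCL2, a stem cell factor, 233, 248 and 170.4 against 112, 93.6 and 67.6. Neither overlapped, and both gaps widened (adjusted p = 0.0454 and 0.0436). Both of these p-values lie near the threshold, and the change of the gap of single genes was not followed under other settings. LEF1, a partner of β-catenin, differed by −2.24 and EPHB3, a receptor that positions cells in the crypt, by −1.89. ZNRF3 and RNF43, which remove Wnt receptors, differed by −0.99 and −0.82, MYB by −0.97 and the stem cell receptor LGR5 by −0.72, all called. The feedback inhibitors NKD1 and APCDD1 were not called, at 0.027 (unresolved) and 0.056 (within 2-fold).

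A few targets ran the other way. CCND1, the cyclin of early G1, read 415, 474 and 410 in the shRNA line and 854, 948 and 1029.6 in the dnTcf4 line, and BAMBI, a pseudoreceptor, 146, 148 and 131 against 279, 257 and 348. The groups were separate for both, from gaps within 2-fold before induction. DKK1, a secreted Wnt inhibitor, read 15.4, 11.6 and 14.7 against 365, 289 and 410.3 and was apart from the start (4.06). MYC, CD44, SOX9 and SLC12A2 ended within 2-fold, at −0.25, −0.17, 0.23 and −0.14. The gap of CD44, an adhesion receptor, had been 0.99 before induction, and its change passed the test (adjusted p = 4.38e-06).

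Of 15 crypt stem cell markers 11 were called (73.3%, against 48.0% of all genes), 4 were apart (26.7%, against 16.8%) and 8 were within 2-fold (53.3%, against 56.1%). CD24, a surface sialoglycoprotein, read 228, 224 and 169 in the shRNA line and 1879, 1689 and 1736 in the dnTcf4 line, and its gap widened from 1.10 to 3.11. SMOC2, a matrix protein of stem cells, read 472, 649 and 468 against 24.1, 52.1 and 38.2, with a gap of −3.83 before induction. LRIG1, a brake on growth factor receptors, was intermediate at 0.87.

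Genes tied to wound repair and fetal-like epithelium were in part higher in the dnTcf4 line. Of 13 tested 8 were called (61.5%, against 48.0% of all genes) and all 8 were apart (against 16.8%), 7 higher and 1 lower in the dnTcf4 line. The median difference was 1.51, beside 1.37 before induction. EMP1, an epithelial membrane protein, read 118, 107 and 141 in the shRNA line and 4002, 4214 and 3665 in the dnTcf4 line. IL1RN, the interleukin-1 receptor antagonist, read 29.5, 31.6 and 49 against 922, 985 and 828. Both were apart before induction too, and the gap of IL1RN widened (adjusted p = 0.00036). PLAUR (the urokinase receptor) and LAMB3 (a laminin chain) opened, from 0.44 to 2.65 and from 0.46 to 1.51. ANXA1 narrowed from 3.95 to 2.06. CLU, ITGA2 and S100P were within 2-fold. The exception, CCN1, a YAP target, was lower in the dnTcf4 line with a difference of −1.65. IL1R2, the decoy receptor of interleukin-1, crossed over: it started at 20.5 in the shRNA line and 94.8 in the dnTcf4 line and ended at 1502, 1847 and 2126 against 163, 227 and 179.

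Genes of cell division ended higher in the dnTcf4 line, and none was called lower. Of 30 mitosis genes 29 were called higher (96.7%, against 21.1% of all genes) and none lower. Apart were 24 (80.0%, against 16.8% of all genes), and CENPA was within 2-fold and not called. Of 39 replication and G1/S genes 36 were called higher (92.3%, against 21.1%), none lower, 21 were apart (53.8%, against 16.8%) and 11 within 2-fold. The median differences were 1.39 and 1.12, beside 0.50 and 0.31 before induction, when 23 and 32 genes had been within 2-fold. Of the mitosis gaps 26 widened and 1 narrowed, and of the replication gaps 24 widened and none narrowed.

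MKI67, the proliferation antigen, read 59.2, 48.9 and 61.6 in the shRNA line and 176, 172 and 189 in the dnTcf4 line. KIF11, the motor that separates spindle poles, read 108, 87.6 and 66.8 against 363, 319 and 280.4, and BIRC5 (survivin) 288, 348 and 361 against 1031, 1108 and 931. The groups were separate for each, 3.18-fold, 3.72-fold and 3.09-fold apart. Among replication genes CCNE2, the S-phase cyclin, read 24.5, 23.2 and 24.1 against 152, 89.5 and 91.5 and TK1, thymidine kinase, 298, 327 and 337 against 907, 1071 and 814. RRM1, the large subunit of ribonucleotide reductase, read 482, 489 and 479 against 1465, 1424 and 1240. These groups did not overlap, and TK1 had started level (0.042) where CCNE2 had not (1.65). The clamp PCNA and the helicase subunits MCM3, MCM6 and MCM7 differed by 0.70, 0.75, 0.37 and 0.54, all within 2-fold, and CCNE1, POLD1 and MCM4 were not called.

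Ribosome biogenesis factors, which serve growth, ended mostly within 2-fold. Of 23 factors 8 were called higher and 8 lower in the dnTcf4 line (69.6% called, against 48.0% of all genes), 1 was apart (4.35%, against 16.8%) and 19 were within 2-fold (82.6%, against 56.1%), with a median of −0.054. NPM1 and FBL, nucleolar proteins, differed by −0.48 and −0.44, and NCL by 0.11. Under quantile normalization NPM1 differed by −0.033 and lost its call, while NCL differed by 0.277 and was called (limma adjusted p = 0.616 and 0.000761). With each array centred on its median FBL differed by −0.286 and lost its call (adjusted p = 0.0652). The exception, RRP12, was lower in the dnTcf4 line at 176, 224 and 227 against 60.8, 73.9 and 66.6.

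**Figure D5:**
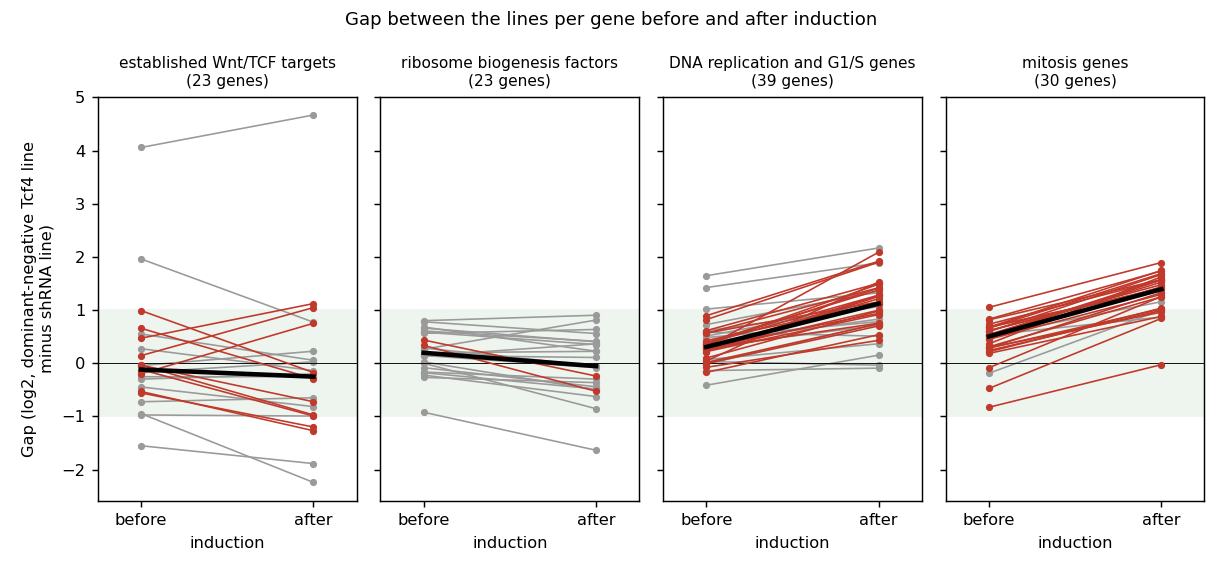
Gap between the lines (log2 signal, dnTcf4 line minus shRNA line) of each gene of 4 lists before and after induction; red lines are genes whose gap changed at an adjusted p under 0.05, grey lines the others, the thick black line the list median and the shaded band a gap under 2-fold. Replication and mitosis genes shift upward together, to medians of 1.12 and 1.39, while the Wnt target and ribosome biogenesis medians end at −0.25 and −0.054.

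Antigen presentation genes ended mostly within 2-fold. Of 13 MHC class I and peptide-loading genes 6 were called (46.2%, near the 48.0% of all genes), PSMB10 alone was apart (7.69%, against 16.8%) and 10 were within 2-fold (76.9%, against 56.1%). B2M, the light chain of class I molecules, read 5839, 5242 and 5767 in the shRNA line and 5696, 5362 and 5487 in the dnTcf4 line, and HLA-E 1648, 1814 and 1981 against 1723, 1836 and 1852, overlapping in both cases. HLA genes resemble each other closely, so signal may be shared. Interferon-stimulated genes were mixed: of 19, 14 were called (73.7%, against 48.0% of all genes). Of these 5 were apart and higher and 4 apart and lower (47.4% of the list apart, against 16.8%). OAS1, an antiviral RNA sensor, read 581, 758 and 726 against 1984, 1947 and 1957, and IFI27 read 638, 1105 and 663 against 76.4, 95 and 51.1, each without overlap. RSAD2 (viperin), an antiviral enzyme, opened to 18, 22.9 and 18.9 against 303, 234 and 339.

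Of 9 reference genes 8 were within 2-fold (88.9%, against 56.1% of all genes), and GUSB, at 518, 559.6 and 586 against 1003, 1097 and 912, was intermediate. ACTB, GAPDH and PPIA were lower in the dnTcf4 line by 1.22-fold, 1.32-fold and 1.32-fold on the deposited scale, directions that turned under quantile normalization. Under that scaling AGR2, B2M, S100P, AKR1C2 and S100A10 turned as well. For all these genes which line was higher depends on the scaling, and only the closeness of the levels is read from them.

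Closed gaps numbered 133 (1.07% of genes tested). The widest at the start was that of AKR1C2, an aldo-keto reductase, from 567 and 5337 to 6039, 5688 and 6244 in the shRNA line against 5892, 5876 and 6037 in the dnTcf4 line. It rose 10.6-fold in the shRNA line, to the level at which the dnTcf4 line already stood, and AKR1C1, near-identical in sequence, did likewise. S100A10, an annexin partner, closed in the same way to 4786, 5024 and 5517 against 4305, 5294 and 5222, as did PRSS3. GPA33, an intestinal surface antigen, and TOX3, a chromatin protein, closed from the other side. GPA33 rose 3.28-fold in the dnTcf4 line and fell 1.4-fold in the shRNA line to reach 1403, 1471 and 1606 against 1249, 1582 and 1196. Of the 133, 57 had a called change of at least 2-fold in the shRNA line, 49 in the dnTcf4 line and 15 in both.

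Opened gaps numbered 513 (4.14%), 285 ending higher and 228 lower in the dnTcf4 line. Of the 513, 255 had no called change of at least 2-fold in either line alone. Those with the largest end difference, besides CTNNB1 itself, were ISX, CA1, UGT2B28, ACSL5, RSAD2, ID1 and TMT1B. UGT2B28, a steroid glucuronosyltransferase, read 555, 543 and 386 in the shRNA line and 23.9, 21.7 and 19.3 in the dnTcf4 line, and its relative UGT2B17 1723, 1510 and 1819 against 13.2, 22.9 and 20. These groups lie far apart, but the enzymes are so alike that their probe sets may share signal. TMT1B, a methyltransferase, read 111, 132 and 145 against 1434, 1573 and 1586, having fallen 3.32-fold in the shRNA line and risen 4.74-fold in the dnTcf4 line.

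Kept gaps numbered 801 (6.47%), 276 higher and 525 lower in the dnTcf4 line, and 560 of them had no called change of at least 2-fold in either line. CYB5A, a cytochrome b5, read 1109, 1121 and 1196 in the shRNA line and 1.6, 5 and 3.4 in the dnTcf4 line, and NKX2-3, a gut homeobox gene, 281, 242 and 333 against 0.4, 1.1 and 2.2. In the other direction ADIRF read 31, 40.1 and 26 against 4224, 4260.2 and 3668, HMGN3, a nucleosome binder, 12.2, 21 and 21.2 against 1182, 1365 and 1115 and KLHL13, a ubiquitin ligase adaptor, 4.3, 0.7 and 4 against 227, 229.9 and 193. In each the low line was low both with and without doxycycline, and no change of the gap was called. TM4SF1, a tetraspan membrane protein, was among the largest end differences, at 29, 17.7 and 34.7 against 4277, 4446 and 4813, and its gap widened (adjusted p = 2.70e-05).

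The other genes with the largest end-state differences likewise differed before induction. Higher in the dnTcf4 line were CYP1A1 (a detoxifying cytochrome P450), NPNT (a matrix ligand of integrins) and TTC22. Higher in the shRNA line were PGM1 (phosphoglucomutase), PXDN (a matrix peroxidase), SIPA1L2, ZNF32, EFNA2, EPB41L3 and GAGE1, whose family members are near-identical. PGM1 read 1114, 1194 and 1105 in the shRNA line against 15.7, 17 and 16.1 in the dnTcf4 line, 69.9-fold apart, beside 813 and 20.1 before induction.

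Crossed gaps numbered 13 (0.105%), 9 ending higher and 4 lower in the dnTcf4 line. Besides KRT20, REG4, IL1R2 and CGN, the largest were GRHL3, a factor of barrier epithelium, at 7.7, 3.6 and 12.8 against 50.2, 56.6 and 66.7, and CIDEB, of lipid droplets, at 40.7, 30.6 and 19.3 against 138, 159 and 218. The shRNA line had been the higher of both before induction, 31.4 against 6.54 for GRHL3 and 104 against 42.8 for CIDEB. SULT2B1, a cholesterol sulfotransferase, and KRT15 crossed at lower levels, and their end-state calls were lost on leaving out single arrays. The adjusted p for KRT15 was 0.0557 without induced dnTcf4 replicate 2, and that for SULT2B1 was 0.058 and 0.0741 without induced dnTcf4 replicate 3 and shRNA replicate 2.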

How the data were processed

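RNA of 12 samples was measured on Affymetrix U133 Plus 2.0 arrays. The authors deposited 1 signal intensity per probe set, linear and not in log2, made with MAS5 in GCOS per the submitters' processing notes (no version is given there). Each deposited array had a trimmed mean of 100 over the middle 96% of probe sets. Medians were 12.1 to 15.3, and 6.58% to 9.25% of values lay under 1. The number of arrays limits the precision.

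Groups follow the sample titles. Of 54675 probe sets (62 controls, left out), 41097 had 1 gene symbol, 1801 several and 11777 none, by platform annotation updated through Entrez IDs. The probe set with the highest mean of log2 signal (floor 1) stood for each of 19775 genes, and 7389 genes below a mean log2 of 3.35 (signal 10.2) were left out. limma 3.58.1 in R 4.3.3 fitted 4 group means over all 12 arrays with a variance trend (8 residual degrees of freedom), tested on simulated data. Same-numbered arrays did not deviate together (correlations −0.081 to 0.087), so no pairing was used.

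Genes were named by a rule: the 12 largest differences in each direction among genes without overlap, up to 4 apart members in each direction and 3 bright members within 2-fold per list, 8 genes of each gap class, and all CTNNB1 and TCF7L2 probe sets. Other list members were named after their values were seen. The groups compared, the 26 gene lists (369 of 525 genes tested) and the rules were chosen with earlier results of these data known. Of 10 mesenchymal transition genes none passed the filter. Fibroblast, leukocyte and endothelial lists had 5, 4 and 2 genes tested, with 2, 1 and 1 called, each by at least 2-fold. Alternatives were another normalization, filter, offset (3.5), probe set choice or model, the replicate block, and each array left out. Promoter windows are from RefSeq, GRCh38.p14.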

Additional observations from a re-analysis of the deposited data

Results flagged for a closer look

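The change of the gap between the lines, tested as the gap after induction minus the gap before, is given for the named genes of each class. It passed the test for 100 of 182 named genes. The largest limma adjusted p (Benjamini-Hochberg) among the 24 listed here is 0.00714, for KRT15. Positive values mean that the dnTcf4 line gained on the shRNA line.

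Among gaps that closed, the change was −3.25 for AKR1C2, −2.43 for AKR1C1, −2.72 for S100A10, −2.7 for PRSS3 and −2.42 for PRSS2. It was 2.96 for TOX3, 2.2 for GPA33 and 2.15 for EFR3B. AKR1C1 and AKR1C2, and PRSS2 and PRSS3, are near-identical pairs whose signals may be shared.

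Among gaps that opened, the change was −5.44 for ISX, −5.03 for CA1 and −4.54 for UGT2B28. It was 4.78 for CTNNB1, the target of the short hairpin RNA. TMT1B changed by 3.97, ACSL5 by 3.61, RSAD2 by 3.54 and ID1 by 3.18.

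Among genes that changed sides, the shRNA line gained at IL1R2 (−5.48), KRT20 (−4.63) and REG4 (−3.8). The dnTcf4 line gained at GRHL3 (5.28), CGN (4.56), CIDEB (3.82), SULT2B1 (3.25) and KRT15 (3.17). GRHL3 and KRT15 were dim, and their sizes depend on the floor of 1.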

How the results depend on the processing

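Of 1885 values of named genes under other settings, 1776 kept their side of the threshold without turning. Of the rest 88 lost the call, 12 gained one and 9 turned. A value counts as turned only where its direction changed and it was called before or after. Uncalled values that changed direction are therefore counted among the 1776. With 1 array left out 2126 of 2184 were kept by the same count, 46 lost the call, 12 gained one and none turned. Under quantile normalization AGR2 turned to 0.184, S100P to 0.35, B2M to 0.344, ACTB to 0.197, PPIA to 0.0679, GAPDH to 0.0876, AKR1C2 to 0.387 and S100A10 to 0.252. Without probe sets shared between transcripts KRT7 turned to −0.0112. The cause was not tested. Centring on the array median moved the share of called genes that were higher from 44% to 58%.

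A filter at the 75th percentile (log2 6.29, signal 78.2), which tests fewer genes, left 555 genes apart and higher, 597 apart and lower, 592 apart before induction, 372 kept and 6 crossed. Taking every probe set by itself, which tests more features, gave 5179 called higher, 5616 called lower, 1946 apart and higher, 2193 apart and lower, 13456 within 2-fold, 2605 apart before induction, 219 closed, 799 opened, 1511 kept and 21 crossed. Without shared probe sets 80 closed and 8 crossed. Testing against a 2-fold minimum left 333 higher and 434 lower, both as called and as apart. Called gap changes, 2185 as reported, numbered 1497 with each array centred on its median and 1749 without the variance trend. With array quality weights they numbered 2542.

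With 1 array left out, genes called ranged from 2371 to 2701 higher and from 3032 to 3400 lower. Genes apart ranged from 840 to 914 higher, 1154 to 1229 lower and 1216 to 1377 before induction, and genes within 2-fold from 6535 to 7020. Called gap changes ranged from 1754 to 2181, closed from 103 to 168, opened from 424 to 539, kept from 760 to 827 and crossed from 10 to 15. With the replicate number as a block, 2619 genes were called higher and 3330 lower, 873 and 1208 were apart, 2204 gap changes were called and 131 closed. The block changed 1 call among named genes, CPT1A (−0.256, adjusted p = 0.0487).

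MAS5 signals near the background are noisy and the table holds no detection calls, so differences of dim genes rest on the floor, and 2041 genes were unresolved. Of 182 named genes 90 had another probe set, and 1 of the 155 others was called in the opposite direction (PHLDA1, −0.618 against 0.752).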
